A study of Homo sapiens with 26 samples.

Results

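The tubulin isotype genes described here are 10 protein-coding genes, chosen by name from the 19478 coding sequences counted in each table: the alpha tubulins TUBA1A, TUBA1B, TUBA1C and TUBA4A and the beta tubulins TUBB, TUBB2A, TUBB2B, TUBB3, TUBB4B and TUBB6. All 10 were found in all 4 deposited tables, with 1 transcript each. The tables hold counts of ribosome footprints in 26 libraries, made from 3 human lines, and the series compares ways of removing ribosomal RNA from such libraries. HEK293T and HEK293FT are lines derived from embryonic kidney, and K562 is a leukaemia line with erythroid features.

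The HEK293T table held 2 libraries each that were undepleted or depleted with Ribo-Zero Gold, RiboCop or NEBNext, from fragments of 15 to 35 nt. The first K562 table, here the size table, held 1 undepleted and 1 NEBNext library for fragments of 20 to 34 nt and 1 of each for 20 to 60 nt. For each library whose title says undepleted in the size table, a second label names NEBNext; the title decided its group. The other K562 table, here the kit table, held 20 to 34 nt libraries: 2 each that were undepleted or treated with FastSelect, riboPools or riboPools without heating. It also held 4 Ribo-Zero Plus libraries, 1 each for the kit alone, the kit plus formaldehyde, the kit plus oligos and the kit plus both additions. The HEK293FT table held 1 undepleted library and 1 depleted with custom oligos, both of 15 to 35 nt. Nothing in the labels says that replicates came from separate cultures, so p-values measure the spread between these libraries, which may be technical.

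Alpha and beta tubulin pair as a heterodimer, and heterodimers assemble head to tail into the protofilaments of microtubules. Vertebrates encode several isotypes of each, which are alike over most of their length and differ most in an acidic C-terminal tail. The tail faces outward and carries modifications such as polyglutamylation and, in most alpha tubulins, a terminal tyrosine that can be removed. Cells also adjust tubulin synthesis to the pool of free dimers: the first residues of a nascent tubulin are recognised by TTC5 while the ribosome is translating, and the mRNA is then degraded.

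Library totals ran from 46858 to 5795774 counts. Levels are given as CPM, the count scaled to a common library total. Marker genes matched the labelled lines: 9 erythroid markers summed to 3639 to 12890 CPM in the 16 K562 libraries and to 0 to 6.52 CPM in the 8 HEK293T libraries. In HEK293T, 8 of these 9 markers were at 0, and TAL1 alone had counts. In turn, 5 genes known from HEK293 lines summed to 477 to 789 CPM in HEK293T, 285 to 306 CPM in HEK293FT and at most 0.969 CPM in K562, with PAX2 and NEFM at 0 there.

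The isotype genes are so alike that many footprints cannot be assigned to 1 gene by sequence, and the treatment of such reads is not given in the sources used here. TUBA1A, TUBA1B and TUBA1C lie on chromosome 12, at 49184796 to 49189324 (minus strand), 49127782 to 49131395 (minus strand) and 49264907 to 49274603 (plus strand) of GRCh38, and each has 4 coding exons. Their coding sequences begin with the same 140 bases. The following 60 coding bases, from base 111 to base 170 counted from the A of the start codon, show where that identity ends, and capitals mark bases that differ from TUBA1B. The stretches lie within 1 exon of each gene, and all sequences shown were read from GENCODE release 29 transcripts, on the coding strand.
TUBA1B: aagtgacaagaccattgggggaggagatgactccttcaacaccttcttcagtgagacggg
TUBA1A: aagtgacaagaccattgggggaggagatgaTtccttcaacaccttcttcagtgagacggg
TUBA1C: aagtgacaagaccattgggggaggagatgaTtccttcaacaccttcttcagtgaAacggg
In this stretch TUBA1A differed from TUBA1B at 1 base and TUBA1C at 2. A 28-base footprint, a usual length for a translating ribosome, therefore names a single gene only where it spans one of the few differences.

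Over the whole coding sequence, identity to TUBA1B was 97.2% for TUBA1A and 96.8% for TUBA1C. Of all 28-base windows, 88.0% in TUBA1B, 75.5% in TUBA1A and 75.5% in TUBA1C also occur in a transcript of another gene. TUBA4A, on chromosome 2 at 219249711 to 219254032 (minus strand), shared 23.3% of its windows, most of them with TUBA4B. Among the beta genes, TUBB2A and TUBB2B were 98.1% identical and shared 84.7% and 81.8% of their windows. TUBB, on chromosome 6 at 30720201 to 30725426 (plus strand), shared 60.9% of its windows, and 50.5% with the pseudogene TUBBP1. TUBB3, TUBB4B and TUBB6 were more distinct, at 30.5%, 27.99% and 12.9%. TUBB3 also lies inside a longer annotated transcript of its locus, AC092143.1, and 97.6% of its windows are shared once that transcript is counted. No member shared many windows across the alpha and beta families, whose coding sequences are 55.4% to 57.5% identical in the pairs with TUBB and TUBB2A.

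**Figure D1:**
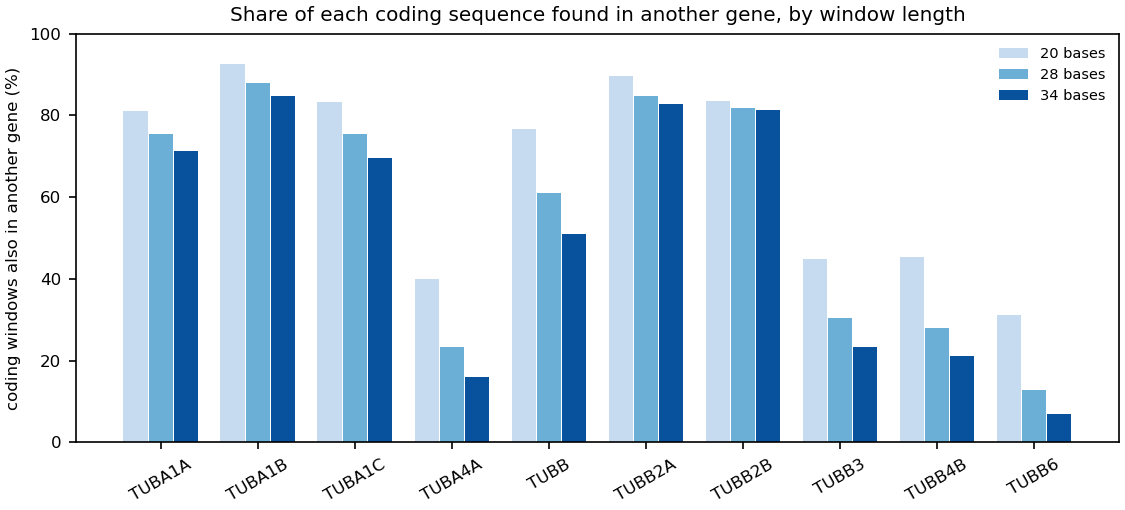
Percentage of the windows of 20, 28 or 34 bases in each coding sequence that also occur in a transcript of another gene (vertical axis, from 0), for the 10 tubulin genes. TUBA1B has the highest share at 28 bases (88.0%) and TUBB6 the lowest (12.9%).

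The last 60 coding bases encode the C-terminal tail. They are shown for TUBA4A and 4 beta genes, to show which of these can be told apart there. TUBA1A and TUBA1B, not shown, have the same last 60 bases. Capitals mark bases that lie in no 28-base coding window shared with another gene, and the stop codon is included.
TUBA4A: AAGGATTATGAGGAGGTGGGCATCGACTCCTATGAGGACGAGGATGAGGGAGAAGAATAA
TUBB: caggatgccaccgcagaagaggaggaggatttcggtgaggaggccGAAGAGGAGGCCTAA
TUBB2A: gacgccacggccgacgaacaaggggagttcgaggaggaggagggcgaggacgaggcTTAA
TUBB2B: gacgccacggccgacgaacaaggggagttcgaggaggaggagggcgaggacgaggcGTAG
TUBB6: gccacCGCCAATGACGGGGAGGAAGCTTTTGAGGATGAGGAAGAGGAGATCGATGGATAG
TUBB2A and TUBB2B differed only within the last 4 bases, TTAA against GTAG. The TUBA4A and TUBB6 tails held 60 and 55 bases outside any shared window. Counts come from the whole coding sequence, where 23.3% of the TUBA4A windows and 12.9% of the TUBB6 windows were shared. Bases outside any shared window numbered 608 of 1347 in TUBA4A and 756 of 1341 in TUBB6. The values below for these 2 genes are thus less exposed to shared reads. Those of TUBA1A, TUBA1B, TUBA1C, TUBB2A and TUBB2B are the most exposed. How far shared reads moved their counts was not tested.

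The 10 members, without other tubulin genes, took nearly the same part of each library. The 10 genes together made up 0.971% to 1.04% of the counts in the 8 HEK293T libraries, 1.02% and 1.05% in HEK293FT and 0.911% to 1.03% in the 16 K562 libraries. The ranges of HEK293T and K562 overlapped, so a difference in the summed level was not visible.

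Levels of different genes were compared as CPM per kilobase of coding sequence, and the order depends on this scale. In undepleted HEK293T, TUBA1B had 607 counts and 159 windows of 28 bases found in no other gene. TUBB had 940 counts and 511 such windows. In undepleted K562 libraries of the kit table, TUBA1B had 3852 counts and TUBB had 9382. Divided by such windows, the TUBA1B counts stood above those of TUBB in both lines, whereas per kb TUBB was highest. The division gives a level only if shared reads were left out of the counts, which is not known. In the undepleted HEK293T libraries TUBB, the main beta tubulin of dividing cells, was highest at 2515 and 2621 CPM per kb. TUBB was followed by TUBA1B, the most used alpha tubulin of many cell types, at 1487 and 1754 CPM per kb. TUBA1A, abundant in developing neurons, had 1088 and 932 CPM per kb. This range overlapped that of the broadly used TUBA1C, at 1080 and 1033 CPM per kb, so these neighbours in the order were not distinct. The broadly used beta gene TUBB4B came next at 741 and 546 CPM per kb, and the remaining 5 genes lay between 4.84 and 132 CPM per kb.

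In undepleted K562 libraries of the kit table the same 5 genes led. TUBB had 3307 and 3172 CPM per kb, TUBA1B 1298 and 1324, TUBA1C 1114 and 1100, TUBA1A 709 and 762 and TUBB4B 626 and 604 CPM per kb. Here TUBA1C stood above TUBA1A in both libraries. Of the minor genes TUBB6 was highest, at 137 and 127 CPM per kb, and TUBB3, the neuronal beta tubulin, lowest at 45.6 and 35.8 CPM per kb. TUBA4A (84.3 and 82.7 CPM per kb) and TUBB2A (90.8 and 81.1 CPM per kb) overlapped and were not distinct in order.

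**Figure D2:**
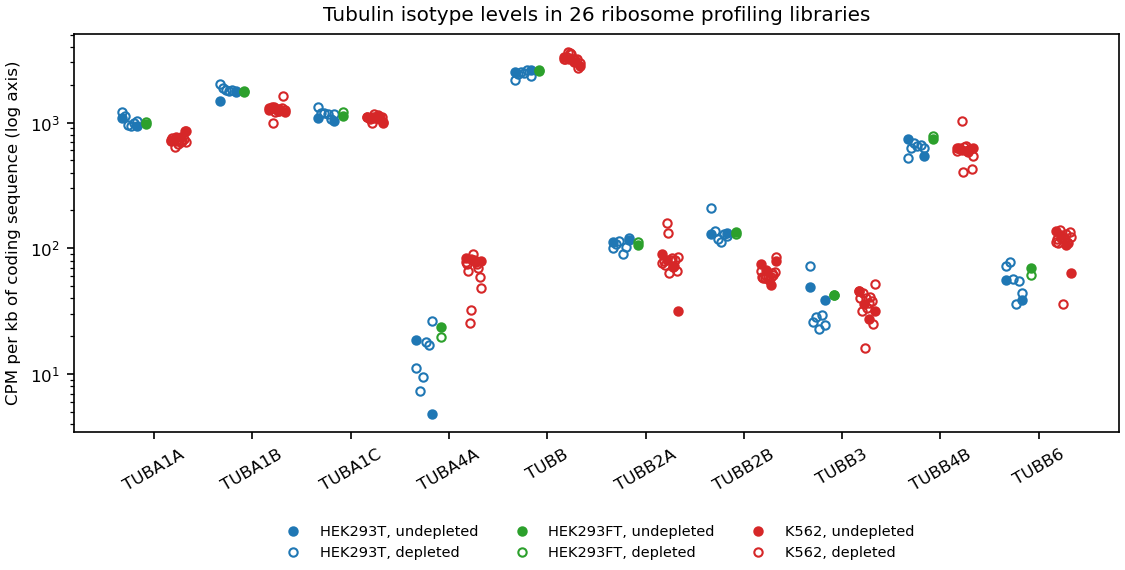
Level of each of the 10 tubulin genes in every library (vertical axis, CPM per kb of coding sequence, log axis), with HEK293T in blue, HEK293FT in green and K562 in red. Filled points are undepleted libraries and open points depleted ones. TUBA4A, the lowest gene in both undepleted HEK293T libraries, is higher in undepleted K562, and TUBB is higher in every K562 library than in any HEK293T library.

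Shares were taken within the alpha or the beta members, and means are given with SD (n = 2). TUBA1B made up 43.8% ± 4.68 of alpha footprints per kb in undepleted HEK293T. In undepleted K562 of the kit table it made up 40.5% and 40.51%. TUBA1C had a share of 28.6% ± 1.17 in HEK293T and 34.2% ± 0.778 in K562. TUBA1A had 27.3% ± 3.24 in HEK293T and 22.7% ± 0.842 in K562. The lower HEK293T share of TUBA1A, 25.03%, was above both K562 shares of the kit table (22.1% and 23.3%), but the undepleted libraries of the size table had 23.8% and 27.1%, so the lines overlapped. For TUBA1C all 4 undepleted K562 libraries lay above both HEK293T libraries. Among beta tubulins TUBB had a share of 72.4% ± 3.73 in HEK293T and 77.4% ± 0.269 in K562, and TUBB4B 18.1% ± 3.49 and 14.7% ± 0.113. HEK293FT was close to HEK293T in its single undepleted library. Its shares per kb were 44.9% for TUBA1B, 29.3% for TUBA1C, 25.2% for TUBA1A, 70.3% for TUBB and 20.2% for TUBB4B. The shares also depended on the scale. The next values divide all counts by the windows found in no other gene, as if shared reads had been left out, which is not known. Per window found in no other gene, TUBA1B had 61.5% in undepleted HEK293T and 59.0% in undepleted K562 of the kit table. In the same order, TUBA1C had 19.65% and 24.3%, and TUBA1A 18.8% and 16.1%. TUBB had 72.6% and 80.4%, and TUBB4B 9.87% and 8.28%.

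The undepleted libraries of K562 and HEK293T addressed isotype use in the lines. Line, experiment and size selection coincide in this comparison and cannot be told apart. Footprint counts also join mRNA level with ribosome occupancy, and in pooled cells fewer cells with a gene and less RNA per cell cannot be told apart. With edgeR's quasi-likelihood test, 6 of the 10 genes passed an adjusted p of 0.05, against 37.4% of the 8892 genes tested. TUBA4A, TUBB6, TUBB and TUBA1C were higher in K562 (background 17.8%), and TUBA1A and TUBB2B were lower (background 19.6%). The median log2 fold change was 0.12 over the 10 members and -0.06 over all genes tested.

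TUBA4A, an alpha tubulin whose message lacks the encoded tyrosine at its C-terminus and which is abundant in brain, muscle and platelets, had 25.0 and 6.52 CPM in undepleted HEK293T, from only 3 and 1 counts. In HEK293FT it had 32.2 CPM, from 29 counts, and in K562 it had 114 and 111 CPM, from 244 counts in all. Both K562 libraries were above the 3 libraries of the HEK lines. The ratio of summed CPM was 7.70 between K562 and HEK293T (exact 95% counting interval 2.97 to 28.5) and 3.497 between K562 and HEK293FT (2.37 to 5.33). The fitted log2 fold change against HEK293T was 3.10 ± 0.50 (SE, edgeR adjusted p 5.5e-09), a value that leans on the 4 HEK293T counts. It was 4.24 without the first HEK293T library and 2.36 without the second (adjusted p 1.61e-06 and 0.00189). Over all libraries TUBA4A ranged from 6.52 to 35.6 CPM in HEK293T (median 18.9) and from 34.3 to 121 CPM in K562 (median 104). These ranges touched only through the Ribo-Zero Plus library with formaldehyde, which holds 4 counts of the gene.

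TUBB6, a broadly expressed but usually minor beta tubulin, had 75.0 and 52.1 CPM in undepleted HEK293T (17 counts in all), 93.3 CPM in HEK293FT and 184 and 171 CPM in K562. Both K562 values were above the 3 HEK values. The log2 fold change was 1.69 ± 0.31 (SE, edgeR adjusted p 3.59e-07), and the ratio of summed CPM was 2.86 (1.76 to 4.96). In the size table the undepleted libraries had 142 and 85.4 CPM, and the lower of these, from 4 counts, lay below the HEK293FT value.

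TUBB had 3358 and 3499 CPM in undepleted HEK293T, 3455 CPM in HEK293FT and 4415 and 4234 CPM in K562. The groups did not overlap, and the log2 fold change was 0.51 ± 0.05 (SE, edgeR adjusted p 7.85e-20). The ratio of summed CPM was smaller, 1.26 (1.18 to 1.35), as CPM uses the total count and the fit uses TMM scaling. With total count scaling the median log2 fold change of all genes was -0.24 in place of -0.06, and TUBB remained higher at 0.33.

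TUBA1A had 1475 and 1264 CPM in undepleted HEK293T, 1323 CPM in HEK293FT and 961 and 1033 CPM in K562, with no overlap. It was lower in K562, at -0.27 ± 0.09 on the log2 scale (SE, edgeR adjusted p 0.00955). The adjusted p was 0.0668 with DESeq2, and TUBA1A passed in 6 of the 10 alternatives run. TUBA1C showed the opposite sign in the fit at 0.25 ± 0.08 (adjusted p 0.00838), from 1458 and 1394 CPM in HEK293T and 1504 and 1486 CPM in K562. With total count scaling the TUBA1C difference was 0.07 and did not pass (adjusted p 0.518). TUBA1B had 2016 and 2378 CPM in HEK293T and 1761 and 1796 CPM in K562. Its log2 fold change of -0.14 ± 0.07 did not pass (adjusted p 0.0997), but at total count scaling it was lower at -0.32 (adjusted p 3.8e-05). Thus the calls of TUBA1B and TUBA1C depended on the scaling, while TUBA1A stayed below 0 under all scalings run. Single libraries also decided calls. TUBA1A was lost without the first HEK293T library (adjusted p 0.266) or the first K562 library (0.110). TUBA1C was lost without the second HEK293T library (0.128), the first K562 library (0.102) or the second (0.0819), and TUBA1B was lower (-0.25, adjusted p 0.0137) without the first HEK293T library.

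The near-identical pair TUBB2A and TUBB2B, beta tubulins known mostly from the nervous system, differed in their calls. TUBB2B had 175 and 176 CPM in undepleted HEK293T, 179 CPM in HEK293FT and 101 and 90.1 CPM in K562. Its log2 fold change was -0.69 ± 0.25 (SE, edgeR adjusted p 0.0186; with DESeq2 0.092). The call was also lost without either HEK293T library (0.0952 and 0.185) or the second K562 library (0.0592). TUBB2A had 150 and 156 CPM in HEK293T and 122 and 109 CPM in K562, and its log2 fold change of -0.23 ± 0.25 did not pass (adjusted p 0.493). Whether these 2 genes differed from each other in their change was not tested. TUBB4B (0.14 ± 0.11, adjusted p 0.301) and TUBB3 (0.10 ± 0.38, adjusted p 0.868) did not pass either, and TUBB3 had just 16 counts in HEK293T.

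**Figure D3:**
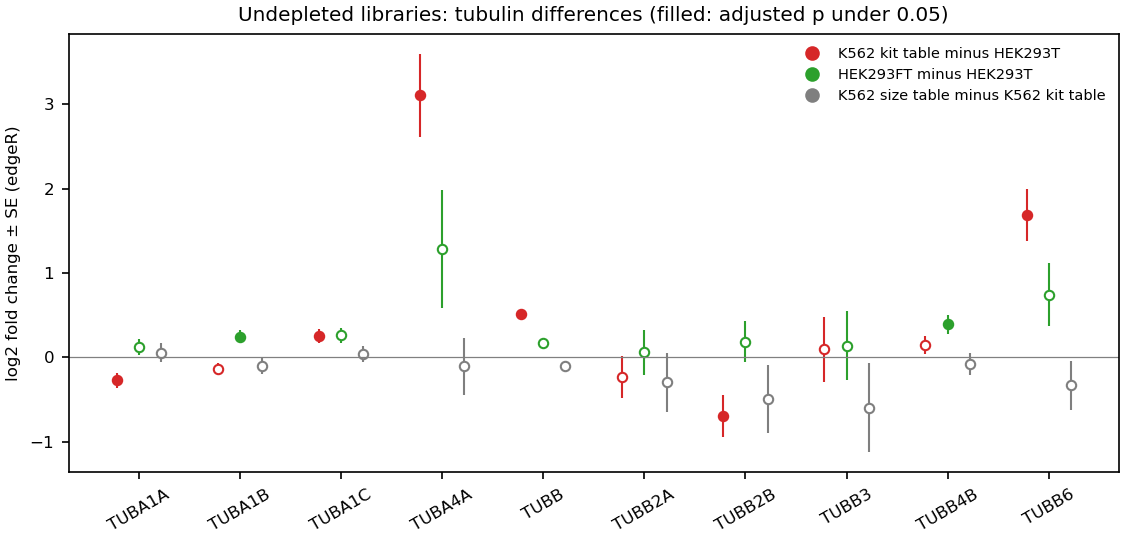
Log2 fold change with SE (vertical axis) of each tubulin gene between undepleted libraries, from edgeR: K562 of the kit table minus HEK293T in red, HEK293FT minus HEK293T in green, and the K562 size table minus the K562 kit table in grey. Filled points passed an adjusted p of 0.05, which was the case for 6, 2 and 0 genes.

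Across all 24 libraries of K562 and HEK293T, depleted ones included, 3 genes had CPM ranges that did not overlap, against 24.6% of the 2418 genes averaging 100 counts or more (15.3% with K562 above and 9.22% with K562 below). Of the members, TUBB3 fell short of that average. TUBB lay between 2903 and 3499 CPM in HEK293T (median 3337) and between 3626 and 4865 CPM in K562 (median 4256). TUBA1A lay between 1264 and 1658 CPM (median 1366) and between 865 and 1154 CPM (median 979). TUBB2B lay between 152 and 278 CPM (median 174) and between 68.3 and 115 CPM (median 82.0). Both HEK293FT libraries fell within the HEK293T range for all 3 of these genes.

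Other undepleted comparisons showed fewer differences. HEK293FT, with 1 library that is assumed to vary like the replicated groups, was set against the pair of HEK293T libraries, and 2 of 10 genes passed, both higher, where 4.59% of all genes passed (3.22% higher). TUBB4B had 994 CPM in HEK293FT against 992 and 730 CPM in HEK293T, a difference of 0.39 ± 0.11 on the log2 scale (SE, edgeR adjusted p 0.0129). TUBA1B had 2357 CPM against 2016 and 2378 CPM, with 0.25 ± 0.07 (adjusted p 0.0207). The TUBA1B call was lost without the first HEK293T library (adjusted p 0.501) and the TUBB4B call without the second (0.689). For TUBA1B the HEK293FT library lay within the HEK293T range on the CPM scale. In the pairs of adjusted p that follow, TUBB4B comes before TUBA1B. Neither call was kept with DESeq2 size factors (adjusted p 0.0759 and 0.191), with total count scaling (0.279 and 0.644) or with DESeq2 (0.185 and 0.209). Under the same assumption, between the single undepleted 20 to 34 nt library of the K562 size table and the kit table no member passed (background 0.146%), and none had an unadjusted p under 0.05. The differences there ran from -0.60 to 0.06 on the log2 scale.

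The balance of the families was described as the ratio of summed alpha to summed beta counts per kb. In undepleted HEK293T this ratio was 1.02 and 1.07, and in undepleted HEK293FT 1.05. The undepleted K562 libraries had 0.749 and 0.800 in the kit table and 0.831 and 0.861 in the size table. All 4 K562 values were below all 3 HEK values. The counting interval of the smallest K562 library, at 20 to 60 nt, ran from 0.709 to 1.05 and so reached the HEK values. The alpha genes summed to 4382 ± 61.5 CPM (SD, n = 2) in the kit table against 5009 ± 49.5 CPM (SD, n = 2) in HEK293T, and beta genes to 5590 ± 185 CPM against 4741 ± 106 CPM. With other counted alpha and beta tubulin genes added, the undepleted ratio was 1.002 and 1.037 in HEK293T and 1.023 in HEK293FT. In K562 it was then 0.736 and 0.784 in the kit table and 0.816 and 0.843 in the size table.

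The level of this ratio depended on how shared sequence is treated. When counts were divided by the number of 28-base windows found in no other gene, as if such reads alone had been counted, the ratio became 2.43 in undepleted HEK293T, 2.51 in HEK293FT and 1.804 in K562 of the kit table. K562 remained below both HEK lines. The level of the ratio is therefore given only as a description within these tables.

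**Figure D4:**
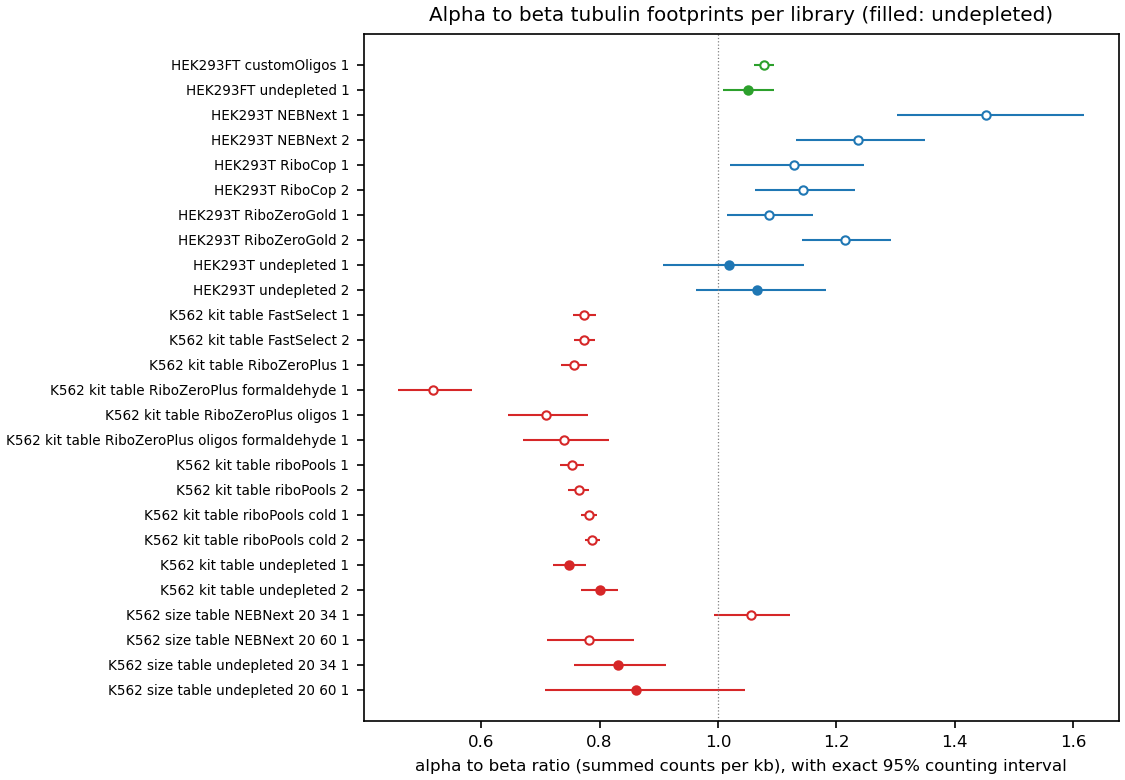
Ratio of alpha to beta tubulin counts per kb (horizontal axis) in each of the 26 libraries, with exact 95% counting intervals; filled points are undepleted, blue is HEK293T, green HEK293FT and red K562. Undepleted K562 libraries lie between 0.749 and 0.861, undepleted HEK libraries between 1.02 and 1.07, and the NEBNext libraries of HEK293T reach 1.24 and 1.45.

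The HEK293T table asked whether a depletion kit changes footprint counts. NEBNext, which digests rRNA with RNase H after probe hybridisation, gave a ratio of 1.45 and 1.24, above every other library of the table. Ribo-Zero Gold, a bead capture kit, gave 1.09 and 1.22, and RiboCop, also bead capture, 1.13 and 1.14. All 6 depleted libraries were above both undepleted ones. The counting intervals of the undepleted libraries ran from 0.908 to 1.145 and from 0.962 to 1.18. Only the first NEBNext library had an interval above both (1.30 to 1.62), and the intervals of the other depleted libraries overlapped them. The 3 abundant alpha genes had the higher levels under NEBNext. TUBA1A had 1658 and 1537 CPM with NEBNext, above its undepleted 1475 and 1264 CPM. TUBA1B had 2738 and 2556 CPM against 2016 and 2378 CPM, and TUBA1C 1793 and 1596 CPM against 1458 and 1394 CPM. In all 3 genes the NEBNext range lay above the undepleted range. TUBB had 2903 and 3242 CPM with NEBNext against 3358 and 3499 CPM, a range below the undepleted one.

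None of these differences in single genes passed the main test, and those in the ratio were not tested. No member of the 9 tested had an adjusted p under 0.05 for NEBNext in HEK293T (edgeR; background 3.24%), and DESeq2 called none. At an unadjusted p under 0.05 there were 3 members: TUBA1B at 0.27 ± 0.09 (SE, log2; adjusted p 0.0678), TUBA1C at 0.26 ± 0.11 (adjusted p 0.205) and TUBA1A at 0.24 ± 0.11 (adjusted p 0.251). TUBB was at -0.13 ± 0.08 (adjusted p 0.448) and TUBB4B at -0.09 ± 0.14 (adjusted p 0.835). The median was 0.24 over the 9 members and 0.00 over all genes. Without the second undepleted replicate TUBA1B passed (0.41, adjusted p 0.032). With replicate number as a block TUBA1B also passed (edgeR adjusted p 0.0301), but the labels do not say what a shared number stands for. The 3 alpha genes share most of their windows, so their values are not independent. TUBA4A was not tested, as it had between 1 and 15 counts in each library of the table.

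For Ribo-Zero Gold no member was called (background 0.068%) and none had an unadjusted p under 0.05. The same held for RiboCop, where the background was 0%. TUBB3 had the lowest fitted values of the 9 members tested in both, -0.69 ± 0.54 and -0.80 ± 0.60 (log2, SE). It had 39.8 and 33.2 CPM with Ribo-Zero Gold and 38.4 and 31.0 CPM with RiboCop, against 66.7 and 52.1 CPM in the undepleted libraries. These ranges did not overlap, yet neither comparison passed (edgeR adjusted p 0.903 and 0.997).

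In the K562 size table, NEBNext also left every tested member short of the threshold (9 tested, 0 called, background 2.85%, DESeq2 0), with 1 at an unadjusted p under 0.05. That gene was TUBA1B, with 2185 CPM under NEBNext and 1666 CPM undepleted at 20 to 34 nt, and 1692 and 1643 CPM at 20 to 60 nt. Its log2 fold change was 0.33 ± 0.15 (SE, edgeR adjusted p 0.258), and the fit has 1 residual degree of freedom. Without the NEBNext library of 20 to 60 nt, and with the size term dropped since none would be left, it was 0.49 (adjusted p 2.43e-06, from 3 libraries with 1 residual degree of freedom). With the size term dropped and all 4 libraries kept it was 0.30 (adjusted p 0.451). The alpha to beta ratio was 1.06 with NEBNext against 0.831 without at 20 to 34 nt, where the counting intervals (0.993 to 1.12 and 0.757 to 0.913) did not overlap. At 20 to 60 nt the ratio was 0.781 with NEBNext and 0.861 without, and the intervals overlapped. The test of whether the NEBNext difference was unlike in K562 and HEK293T called no member of 10 (background 0.296%), with none at an unadjusted p under 0.05 and none called by DESeq2.

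**Figure D5:**
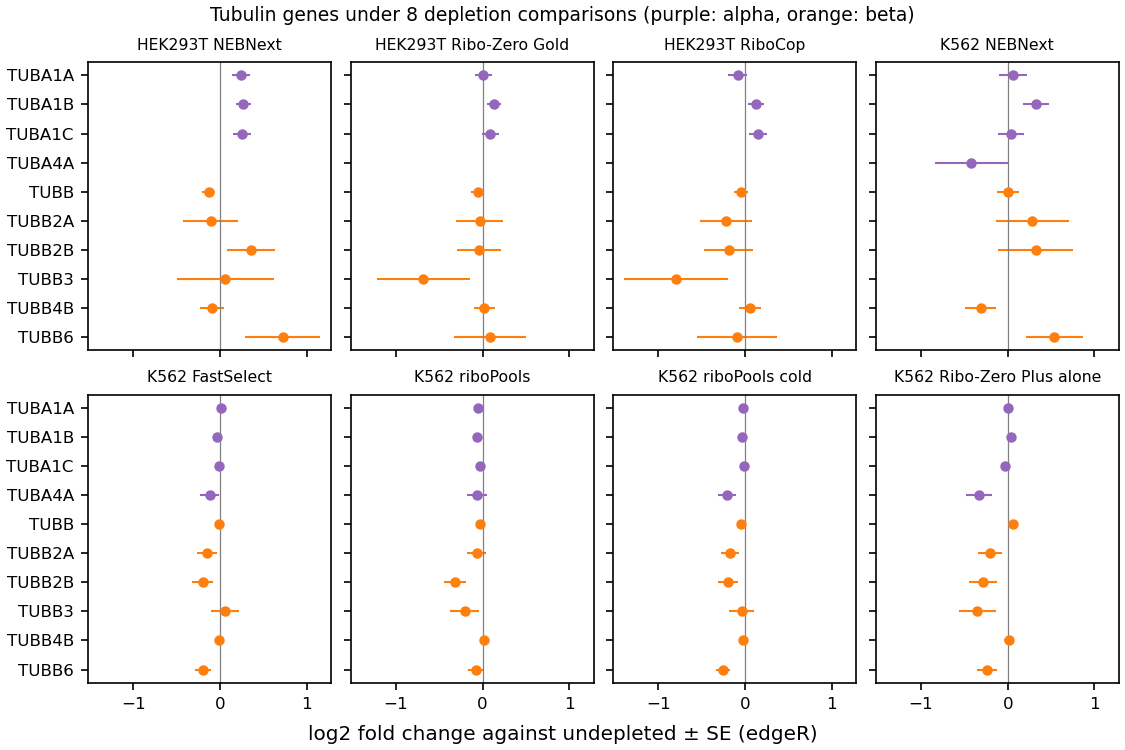
Log2 fold change against undepleted libraries with SE (horizontal axes, edgeR) of each tested tubulin gene in 8 depletion comparisons, with alpha genes in purple and beta genes in orange. None passed an adjusted p of 0.05. In HEK293T with NEBNext the 3 alpha genes tested sit at 0.24 to 0.27 and TUBB at -0.13, and in the FastSelect and riboPools panels the 5 most abundant genes lie close to 0.

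The 8 libraries of the K562 kit table other than Ribo-Zero Plus held 1031889 to 5795774 counts each, more than any HEK293T library. For FastSelect, which blocks reverse transcription of rRNA, 0 of 10 members were called (background 0.0205%), and the log2 differences ran from -0.20 to 0.06. For riboPools, a bead capture kit, 0 of 10 were called (background 0.082%), with differences from -0.31 to 0.01. Without heating, 0 of 10 were called (background 0.225%), with differences from -0.25 to -0.01. At an unadjusted p under 0.05 these 3 comparisons had 1, 2 and 3 members, and DESeq2 called none. TUBB, with a standard error of 0.02 in each, differed by -0.01, -0.03 and -0.05. The abundant alpha genes differed by no more than 0.07 in size. The 3 comparisons share their undepleted libraries. TUBB6 was the member with the smallest unadjusted p, 0.00299 without heating, where it had 150 and 149 CPM against 184 and 171 CPM (log2 fold change -0.25 ± 0.08, adjusted p 0.407). The alpha to beta ratio was 0.7743 and 0.7744 with FastSelect, 0.753 and 0.764 with riboPools and 0.782 and 0.788 without heating. All lay within the undepleted pair at 0.749 and 0.800. Counting intervals were wider than these replicate differences, such as 0.755 to 0.794 for the first FastSelect library.

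Ribo-Zero Plus, a nuclease kit, had 1 library without additions, which is assumed to vary like the replicated groups. There 20.6% of all genes passed, in both directions, but 0 of 10 members did, and 3 had an unadjusted p under 0.05. These were TUBA4A at 88.6 CPM (-0.33 ± 0.15, adjusted p 0.0953), TUBB at 4463 CPM (0.06 ± 0.03, adjusted p 0.098) and TUBB6 at 149 CPM (-0.24 ± 0.12, adjusted p 0.131), and DESeq2 called none. TUBA1A, TUBA1B, TUBA1C and TUBB4B all lay within 0.05 of 0, with TUBA1B at 1810 CPM and TUBB4B at 823 CPM. The ratio in this library was 0.756 (counting interval 0.735 to 0.779).

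The 3 Ribo-Zero Plus libraries with additions were shallower and more uneven. TUBB4B had 1371 CPM with formaldehyde (160 counts), 541 CPM with oligos (100 counts) and 854 CPM with both (141 counts), against 838 and 808 CPM undepleted. The formaldehyde library was the highest of all 26 for TUBB4B and the oligo library the lowest. TUBA1B had 1336 CPM with formaldehyde, the lowest of all 26 libraries, and 1651 and 1732 CPM in the others. TUBB6 had 188, 162 and 48.4 CPM in these libraries, the last from 8 counts. The alpha to beta ratio was 0.519 with formaldehyde (interval 0.460 to 0.585), below every other library, 0.710 with oligos and 0.740 with both.

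Taking the mean of the 4 Ribo-Zero Plus libraries, 1 of 10 members was called, TUBB6 at -0.66 ± 0.21 (SE, log2; edgeR adjusted p 0.0481), where 14.9% of genes passed and 13.4% were lower. All genes had a median of -0.43 in this fit, and the members a median of -0.20. The TUBB6 call was lost with DESeq2 size factors (adjusted p 0.115), with total count scaling (0.101), with DESeq2 (0.110), with both groups alone (0.673) and when the terms for oligos and formaldehyde were dropped with all libraries kept (-0.42, adjusted p 0.765). With those terms kept, it was lost without the first or second undepleted library (adjusted p 0.160 and 0.105), the library of the kit alone (-0.21, 0.422) or that with both additions (-0.20, 0.444). Without the formaldehyde or the oligo library it was -1.13 in each case (adjusted p 2.74e-05 and 2.86e-05). The value of TUBB6 thus rests on the terms and on single libraries. TUBB had 4463 to 4865 CPM in the 4 libraries, all above the undepleted 4415 and 4234 CPM, while its fitted value was 0.00 ± 0.03 (SE, log2) in this fit.

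In HEK293FT, custom oligos were compared in 1 library with 1 undepleted library, so no test was made. None of the 9 members that averaged 100 counts or more passed a 1.5-fold difference, where 1.3% of genes did. TUBA1C had 1626 CPM with oligos and 1530 CPM without, a log2 ratio of 0.09 (counting interval 0.01 to 0.17). TUBB had 3488 and 3455 CPM, a log2 ratio of 0.01 (-0.04 to 0.07). TUBB6 had the lowest value of the 9, at -0.18 (-0.51 to 0.18), and only the interval of TUBA1C lay on 1 side of 0. The ratio of alpha to beta was 1.08 with oligos and 1.05 without, with overlapping intervals.

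Genes that fold, modify or bind tubulin were counted from lists for the undepleted K562 and HEK293T libraries, where 17.8% of all genes tested were higher in K562 and 19.6% lower (37.4% in all). Of 12 folding genes tested, 1 was higher and 2 were lower. PFDN6, a subunit of the prefoldin complex that hands unfolded tubulin to the chaperonin CCT, was higher at 0.93 ± 0.24 (log2, SE, edgeR adjusted p 0.000626). The 2 lower genes, named after their values were seen, were VBP1 at -0.61 ± 0.23 (adjusted p 0.0227) and TBCB at -1.03 ± 0.35 (0.0114). The folding list had a median log2 fold change of 0.13, and prefoldin as a complex was not tested. Of 6 tubulin modification genes tested, 1 was higher and 4 were lower. TTLL12, a member of the tubulin tyrosine ligase-like family, was lower at -0.66 ± 0.20 (adjusted p 0.00474). The other called genes, which averaged under 100 counts, were named after their values were seen. HDAC6 was higher at 1.98 ± 0.45 (adjusted p 6.67e-05). AGTPBP1 was lower at -2.59 ± 0.58 (5.14e-05), AGBL5 at -2.03 ± 0.59 (0.00263) and TTLL4 at -0.98 ± 0.39 (0.0371). Of 9 gamma-tubulin complex genes, which nucleate microtubules, 0 were higher and 1 was lower. Neither of the 2 autoregulation genes tested passed.

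Of 19 microtubule-associated genes, 5 were higher and 3 lower in K562, a share near the 37.4% of all genes. KIF2C, a kinesin that depolymerises microtubules in mitosis, was higher at 2.24 ± 0.24 (adjusted p 2.16e-19). STMN1, which sequesters tubulin dimers, was higher at 1.32 ± 0.14 (adjusted p 1.64e-19). KIF5B, a transport kinesin, was lower at -0.49 ± 0.20 (adjusted p 0.0459), and CKAP5, a microtubule polymerase, at -0.39 ± 0.15 (adjusted p 0.0255). Of 7 further tubulin genes tested, 1 was higher and 1 lower. Named after their values were seen, these were TUBB1, the beta tubulin of platelets and their precursors, and TUBG1, a gamma tubulin. TUBB1 had a median of 19.9 CPM over the 16 K562 libraries and of 0 CPM over the 8 HEK293T libraries, where it had 6 counts in all. TUBG1 had a median of 86.9 CPM in K562 and 165 CPM in HEK293T. The median log2 fold changes of the lists lay between -0.82 for the modification genes and 0.23 for the further tubulins, beside -0.06 over all genes.

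Genes whose levels followed the main isotypes over the 26 libraries were named by Pearson's r of log2(CPM + 1) among 2698 genes that averaged 100 counts or more. For TUBA1B these were CCT3, a subunit of the chaperonin that folds tubulin (r = 0.93), MAGED1 (0.926) and MYH9 (0.926). For TUBB they included CDCA8 (0.927) and STAT5B (0.914). The libraries share lines and experiments, and the values are given as a description.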

How the data were processed

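Ribosome-protected fragments were sequenced from 26 libraries. Per the file headers, each table the authors deposited gives counts, in whole reads, and a companion table RPM, for 1 transcript per row. RPM equalled the deposited count over the library total, so only counts were used; CPM is the same quantity. The submitters' processing notes name CASAVA 1.8, STAR and GRCh38 (hg38), without roles. The treatment of duplicate reads and of reads matching several genes is not given in the sources used here, so intervals cover counting error only. Groups follow the sample titles. The members and gene lists were chosen with earlier results of these data known.

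The quasi-likelihood test of edgeR 4.0.16, run in R 4.3.3, was applied to the counts with TMM scaling, filterByExpr (minimum count 10) and Benjamini-Hochberg adjustment over all genes tested. Kit comparisons used 1 fit per table; the Ribo-Zero Plus libraries were left out of the fit for FastSelect and riboPools. Undepleted libraries of the 3 lines entered 1 fit. The NEBNext fit in K562 had size as a term. DESeq2 1.42.0, other scalings, no filter and left-out libraries were alternatives. The test was tested on simulated data. Exact intervals are binomial at 95%. Windows of 20, 28 and 34 bases were searched in GENCODE release 29 transcripts, leaving out overlapping genes of the same strand; 97.51% of deposited transcripts matched that release. All 10 members were named for K562 against HEK293T, and only some of them in other comparisons. From each list other than the markers, that comparison names up to 2 called genes per direction, those with the largest change and a mean of at least 100 counts. For other comparisons only some of the list genes that meet this rule are named. A few sequences and 1 gene that these rules would show are not reported here. Replicates of 7 groups differed beyond sampling noise (chi-square p 8.74e-16 for NEBNext in HEK293T to 0.047 for undepleted HEK293T). The RiboCop replicates did not (p 0.103), but their totals differ (156200 and 290502 counts) and both were kept.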

Additional observations from a re-analysis of the deposited data

Results flagged for a closer look

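The alpha to beta ratio moved in opposite directions with NEBNext in the 2 size selections of K562. At 20 to 34 nt the NEBNext library had 1.27 times the ratio of the undepleted library, and at 20 to 60 nt it had 0.907 times. Each value rests on 1 library per kit and size, and the difference was not tested.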

How the results depend on the processing

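The number of members called was recomputed under alternatives, and it moved beyond 1.5 times the main count in 4 comparisons. For NEBNext in HEK293T it was 0 to 1 when 1 library was left out and 1 with a replicate block, which called TUBA1B (0.26, adjusted p 0.0301). The labels do not say what a replicate number shared between kits stands for. Correlations of deviations were 0.064 to 0.137 in HEK293T, all positive but with 1 pair of replicates per kit, and -0.049 to 0.02 in K562, so pairing was not established; the block called 0 members in the other 5 comparisons where it was run. For NEBNext in K562 the count was 0 to 1 when 1 library was left out. For the mean of the Ribo-Zero Plus libraries, 1 in the report, it was 2 with no filter, 0 with both groups alone and 0 when any 1 library was left out together with the terms for oligos and formaldehyde. In alternatives chosen after the data were seen, it was 0 with those terms dropped and all libraries kept, and 0 to 5 when 1 library was left out with the terms kept. For HEK293FT against HEK293T, 2 in the report, it was 0 with DESeq2 size factors, 0 with total count scaling, 0 with DESeq2, 4 with no filter and 1 without either HEK293T library.

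Per window found in no other gene, as if shared reads had been left out, the alpha to beta ratio was 2.43 in HEK293T, 1.804 in K562 and 2.51 in HEK293FT. This alternative was chosen after the data were seen. In K562 against HEK293T, TUBA4A, TUBB and TUBB6 passed in all 10 alternatives, while TUBA1A passed in 6, TUBA1C in 5 and TUBB2B in 6. Values that changed sign were all outside the threshold: with total count scaling TUBB3 (-0.0795) and TUBB4B (-0.0368), with the size-table library TUBB3 (-0.50), and with 1 library left out TUBA1B (-0.249 to 0.0136), TUBB3 (-0.11 to 0.26) and TUBB4B (-0.0723 to 0.345), as did TUBB4B under NEBNext in HEK293T (-0.31 to 0.11). The cause of these shifts was not tested. Counts over all genes also moved. From edgeR to DESeq2 they went from 3328 to 2138 for K562 against HEK293T, 408 to 194 for HEK293FT against HEK293T, 143 to 75 for NEBNext in HEK293T, 106 to 26 for NEBNext in K562 (40 with no size term), 3 to 1 for Ribo-Zero Gold, 2 to 1 for FastSelect, 8 to 1 for riboPools, 13 to 3 between the K562 tables, 14 to 1 for the difference in NEBNext between lines and 2080 to 350 for Ribo-Zero Plus alone. With the size-table library of K562 in place of the kit table, 1664 genes were called between the lines, and with both groups alone 5 were called for Ribo-Zero Gold. With no filter Ribo-Zero Gold gave 1. With all 12 kit-table libraries in 1 fit they were 231 for Ribo-Zero Plus alone and 0 for FastSelect, riboPools and riboPools without heating (22 in the report). For the mean of the Ribo-Zero Plus libraries they were 1430 in the report, 839 with DESeq2 size factors, 0 with both groups alone, 3 with the terms for oligos and formaldehyde dropped and 160 to 3569 when 1 library was left out with the terms kept. When 1 library was left out they ran from 2085 to 2455 between the lines, 216 to 262 for HEK293FT, 56 to 150 and 0 to 275 for NEBNext in HEK293T and K562, 1267 to 1412 for Ribo-Zero Plus alone, 1 to 224 for its mean (terms dropped), 13 to 22 for riboPools without heating, 2 to 9 for riboPools, 1 to 3 for FastSelect, 1 to 4 between the K562 tables and 4 to 31 for the difference in NEBNext between lines; Ribo-Zero Gold gave 1 and RiboCop 0 to 1. Leaving out a lone library gives no value. Low counts limit TUBA4A, TUBB3 and TUBB6 most.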

Other observations

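Among genes that act on tubulin, named after their values were seen, 2 were lower with NEBNext than in undepleted libraries of HEK293T: TBCA, a chaperone that binds beta tubulin (log2 fold change -1.23 ± 0.36, SE, edgeR adjusted p 0.0229), and MAPRE1, the plus-end protein EB1 (-1.11 ± 0.27, adjusted p 0.00296). Here 1 of 11 folding genes and 1 of 16 microtubule-associated genes tested were called, against 3.24% of all genes. With Ribo-Zero Plus alone in K562, 2 of 12 folding genes were higher and 2 lower, against 20.6% of all genes. ARL2, a small GTPase of the cofactor pathway, was higher at 0.57 ± 0.14 (adjusted p 0.00109) and PFDN6 lower at -0.53 ± 0.11 (adjusted p 0.000216).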
